A study of Mus musculus with 4 samples.

Results

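The genes for lysosomal acidification, the cathepsins and the Lamp proteins were described in primary (1°) mouse oligodendroglial cultures with and without Zfp276, a zinc finger protein of oligodendrocytes. Members were taken by symbol: every gene named as a subunit of the vacuolar H+-ATPase (V-ATPase; Atp6v0 and Atp6v1 genes), the accessory genes Atp6ap1 and Atp6ap2, every cathepsin (Cts followed by a single letter), and Lamp1, Lamp2, Lamp3 and Lamp5. This gave 46 of 53465 listed genes, of which 9 encode the V0 sector, 13 the V1 sector, 2 accessory proteins, 18 cathepsins and 4 Lamp proteins. The rule uses no measured value, although the members and lists were chosen with earlier results of these data known. Cultures were made from forebrain of mice at P2 to P4, passed through shake-off and a step to deplete microglia, and differentiated for 3 days. The ctrl cells carried the Zfp276 flox/flox genotype without Cre, and the Zfp276cko cells carried Sox10::Cre tg on Zfp276 flox/flox. By these labels both genotypes share the floxed Zfp276 allele and differ in the transgene. Sox10 regulatory sequences drive Cre in the oligodendroglial lineage. The paper describes this Cre as active in oligodendroglial cells from the precursor stage. Recombination in other cell types of these mixed cultures was not measured here. The paper states that mice for such cultures also received a tdTomato reporter allele with a floxed stop, to identify Zfp276cko newborns. The labels do not list this reporter, so Cre may not be the only difference between the genotypes. Mice of both genotypes were on a mixed strain background. Each genotype had 2 libraries, and each library came from a culture preparation pooled from several mice.

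Lysosomes are acidic organelles in which proteins, lipids and sugars are broken down. The V-ATPase is a rotary proton pump: its cytosolic V1 sector hydrolyses ATP, and its membrane-bound V0 sector carries the protons into the lumen. Cathepsins are lysosomal proteases, most of them cysteine proteases that work best at low pH, and Lamp1 and Lamp2 are heavily glycosylated proteins of the lysosomal membrane. Microglia and macrophages hold large amounts of cathepsins, whereas V-ATPase subunits are made by nearly every cell.

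Zfp276 itself had normalized counts of 1648 and 2230 in ctrl replicates 1 and 2, and of 490 and 503 in Zfp276cko replicates 1 and 2. Its mean in Zfp276cko cells was 25.6% of the ctrl mean, in the direction of the labels, although the exons outside the loxP sites are still counted. Normalized counts are reads per gene scaled to a common library size by edgeR's TMM factors. Libraries held 21068322 to 26599809 counted reads, and 0.679% to 1.19% of these fell on members. The ctrl libraries differed more from each other than the Zfp276cko libraries did: the biological coefficient of variation, the relative spread that counting error leaves over, was 0.354 for ctrl but 0.0480 for Zfp276cko cells. Microglia markers were present in every library although the cultures had passed a step to deplete these cells. With 2 libraries per genotype, an exact two-sided permutation test of a single gene cannot go below p = 0.333.

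The highest fold changes among the members were those of cathepsins, and most V-ATPase genes differed little between genotypes. Of the 46 members, 33 had enough counts to be tested: 9 of the V0 sector, 9 of the V1 sector, both accessory genes, 11 cathepsins and 2 Lamp genes. Genes were called where the Benjamini-Hochberg adjusted p did not exceed 0.05, the log2 fold change reached 0.6 in either direction and the mean over libraries reached 20 normalized counts. The quasi-likelihood test of edgeR called 0 members in either direction, as it called 0% of all 15766 tested genes. With DESeq2 the cathepsins Ctsz and Ctsc were called higher in Zfp276cko cells and 0 members lower, against 3.02% of genes called higher and 2.27% called lower. At an unadjusted quasi-likelihood p of at most 0.05, Ctsz, Ctsc and Atp6v1g1 were higher, or 9.09% of the tested members against 8.33% of all genes. Atp6v0a1 was lower by the same criterion, or 3.03% of the tested members against 7.3% of all genes. The share of members that were higher was thus close to that of all genes.

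For 11 members both Zfp276cko values exceeded both ctrl values, which is 33.3% of those tested, against 26.8% of all genes. They lay below for 5 members, or 15.2%, against 23.7% of all genes, and for 17 members the genotypes overlapped. Cathepsins made up 6 of the 11 members that lay above. The median log2 fold change, Zfp276cko against ctrl, was 0.45 for the cathepsins, 0.21 for Lamp1 and Lamp2, 0.02 for the accessory genes, 0.09 for the V1 sector and −0.20 for the V0 sector. Over all members it was 0.09, and over all tested genes −0.00.

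**Figure D1:**
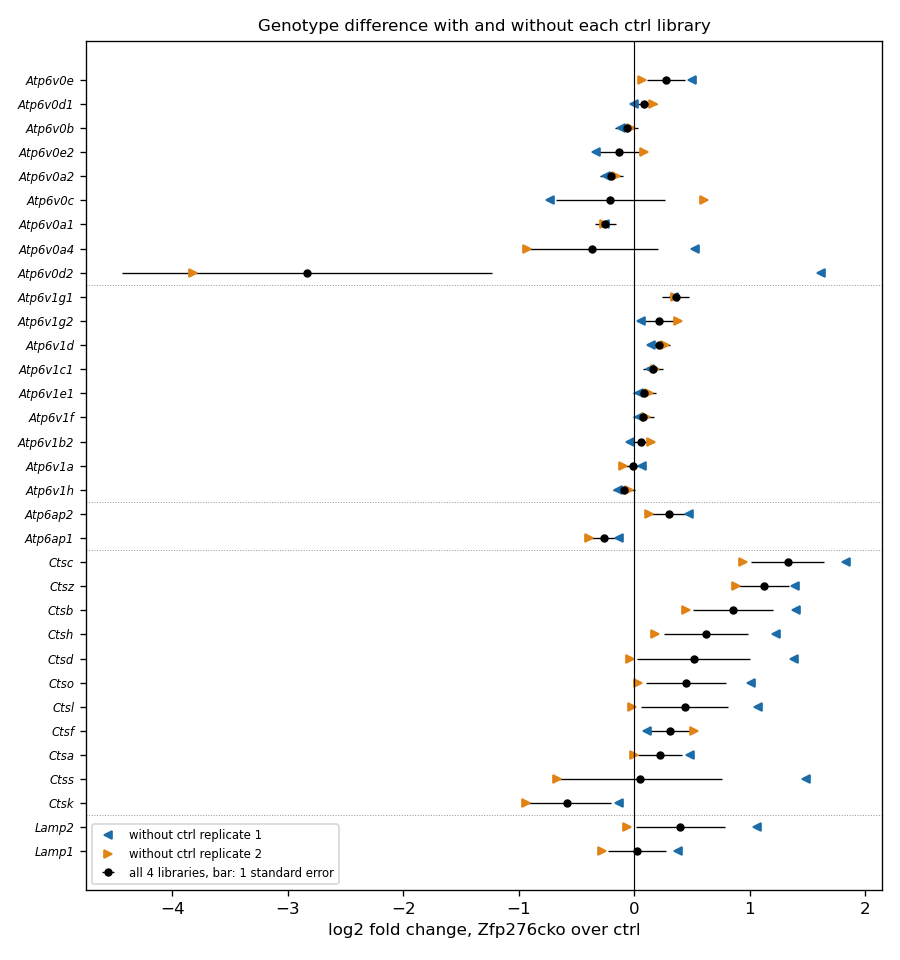
Log2 fold change (Zfp276cko against ctrl) of the 33 tested members, 1 black point per gene, with dotted lines between the V0 sector, the V1 sector, the accessory genes, the cathepsins and the Lamp genes. Bars are 1 standard error of the quasi-likelihood fit with 2 libraries per genotype, and triangles are the values without ctrl replicate 1 or without ctrl replicate 2. Ctsc at 1.33 and Ctsz at 1.12 are the highest, Atp6v0d2 at −2.84 is the lowest with the widest error, most V-ATPase genes lie close to 0, and the triangles of Ctss lie at −0.67 and 1.49.

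Ctsz, which encodes the carboxypeptidase cathepsin X, had normalized counts of 9489 and 6707 in the ctrl replicates and 18832 and 16393 in the Zfp276cko replicates. Both Zfp276cko values were above both ctrl values, and the gap between the genotypes was wider than the gap within either. Its log2 fold change was 1.12 ± 0.21 (SE), a ratio of means of 2.17, with an adjusted p of 0.162 in edgeR's quasi-likelihood test and 0.000335 in DESeq2. Ctsc encodes cathepsin C, a dipeptidyl peptidase that activates granule serine proteases of immune cells. Its normalized counts were 4456 and 2430 in ctrl against 8399 and 8879 in Zfp276cko cells. Again the genotypes did not overlap, but the ctrl replicates were 1.83-fold apart. The log2 fold change of Ctsc was 1.33 ± 0.32 (SE), with an adjusted p of 0.199 in the quasi-likelihood test and 0.00226 in DESeq2. Neither DESeq2 call was kept when either Zfp276cko library was left out, and both were kept when either ctrl library was left out. The log2 fold changes without Zfp276cko replicates 1 and 2 were 1.02 and 1.22 for Ctsz and 1.37 and 1.29 for Ctsc. Without ctrl replicates 1 and 2 they were 1.39 and 0.88 for Ctsz and 1.83 and 0.94 for Ctsc. With 1 library left in a genotype, the spread comes from the other genotype alone. The biological coefficient of variation was 0.354 for ctrl and 0.0480 for Zfp276cko cells. Keeping or losing a call in such a fit therefore cannot tell how firm the call is. Since RNA came from whole cultures, fewer cells of a type and less RNA per cell cannot be told apart in any value given here.

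The gene span of Ctsz is chr2:174427493-174439039 (minus strand) and that of Ctsc chr7:88278085-88310888 (plus strand) in GRCm38. The 250 bases upstream of their RefSeq start sites are shown because these were the members called by DESeq2. They are the intervals chr2:174439040-174439289 on the minus strand and chr7:88277835-88278084 on the plus strand of RefSeq's GRCm38.p6, printed 5′ to 3′ in the direction of transcription. Capitals mark GC boxes (GGGCGG) and PU.1 cores (GAGGAAG), each searched on both strands. PU.1 is the product of Spi1, a myeloid transcription factor.
Ctsz upstream: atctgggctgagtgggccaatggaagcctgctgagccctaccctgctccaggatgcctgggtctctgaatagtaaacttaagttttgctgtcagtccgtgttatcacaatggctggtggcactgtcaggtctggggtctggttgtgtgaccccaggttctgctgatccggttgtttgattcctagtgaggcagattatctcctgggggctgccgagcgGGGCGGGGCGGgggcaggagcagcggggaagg
Ctsc upstream: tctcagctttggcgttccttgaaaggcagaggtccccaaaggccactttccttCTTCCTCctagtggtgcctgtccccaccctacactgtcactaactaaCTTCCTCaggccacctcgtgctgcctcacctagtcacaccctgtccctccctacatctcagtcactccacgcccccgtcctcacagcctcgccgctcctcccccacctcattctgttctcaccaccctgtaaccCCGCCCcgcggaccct
The Ctsz stretch held 2 overlapping GC boxes, on the printed strand, and 0 PU.1 cores. The Ctsc stretch held 1 GC box and 2 PU.1 cores, all on the opposite strand to the one printed. In 300-base windows that reach from 250 bases before to 50 bases after a start site, a PU.1 core stood in 14.6% of the 41 member windows and in 13.6% of all 32851 windows. A GC box stood in 53.7% of member windows and 35.7% of all windows.

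The remaining cathepsins were less separated. Ctsb, a broadly expressed cysteine protease and the most counted member, had normalized counts of 53048 and 27784 in ctrl against 74494 and 71966 in Zfp276cko cells. Its genotypes did not overlap, yet the ctrl replicates were 1.91-fold apart, and its log2 fold change of 0.86 ± 0.35 (SE) had an adjusted p of 0.351 with edgeR's quasi-likelihood test and 0.146 with DESeq2. Ctsh, an aminopeptidase, had normalized counts of 1674 and 817 in ctrl against 1906 and 1925 in Zfp276cko cells, and Ctso had 646 and 331 against 661 and 671. Both lay above ctrl, with ctrl replicate 1 close to the Zfp276cko values and ctrl replicate 2 far lower. Ctsf was the only tested cathepsin that was lower in ctrl replicate 1 than in ctrl replicate 2, with 753 and 1006 in ctrl against 1131 and 1041 in Zfp276cko cells.

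Ctsd, the main aspartic protease of lysosomes, had normalized counts of 32267 and 12168 in ctrl against 32282 and 31110 in Zfp276cko cells. Ctrl replicate 1 fell inside the Zfp276cko range and ctrl replicate 2 far below it, and the log2 fold change was 0.51 ± 0.49 (SE). Ctsl, a cysteine protease, showed the same layout with 13004 and 6178 in ctrl against 13141 and 12780 in Zfp276cko cells. Ctsa, a serine carboxypeptidase that shields other hydrolases from degradation, had 9206 and 6651 in ctrl against 9502 and 9016 in Zfp276cko cells.

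Ctss, a cysteine protease of antigen-presenting cells that stays active at neutral pH, had the widest ctrl gap among the cathepsins. Its normalized counts were 16135 and 3667 in ctrl against 10224 and 10306 in Zfp276cko cells. Both Zfp276cko values lay between the ctrl values, and the log2 fold change was 0.05 ± 0.71 (SE, adjusted p = 0.982 in edgeR's quasi-likelihood test). Ctsk, the collagen-degrading cathepsin of osteoclasts, was the only tested cathepsin with a negative fold change. It had 85.5 and 49.5 normalized counts in ctrl against 48.9 and 41.2 in Zfp276cko cells, for a log2 fold change of −0.58 ± 0.38 (SE).

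**Figure D2:**
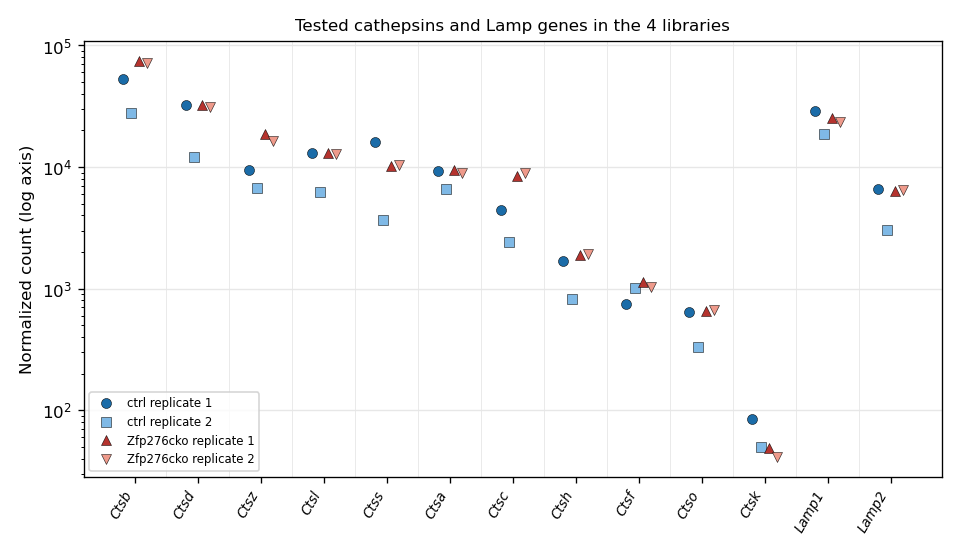
Normalized counts of the 11 tested cathepsins and of Lamp1 and Lamp2 in each library on a log axis, with 1 mark per library. The Zfp276cko points nearly coincide for most genes, whereas the ctrl points lie up to 4.40-fold apart (Ctss).

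The size of the cathepsin difference depended on which ctrl library was compared. Ctrl replicate 1 exceeded ctrl replicate 2 for 10 of 11 cathepsins, with a median ratio of 1.91 against 0.997 over all genes. It was at least 1.5-fold higher for 8 of 11 cathepsins and for 12 of 33 members (36.4%), against 14.9% of all genes. Summed over the 18 cathepsins, normalized counts were 140773 and 67787 in ctrl against 170622 and 164135 in Zfp276cko cells. The median log2 fold change of the tested cathepsins became 1.23 when ctrl replicate 1 was left out and 0.03 when ctrl replicate 2 was left out. In the former case 10 cathepsins lay above the remaining ctrl library, and in the latter 6 lay above and 3 below it. Of the 15766 tested genes, 7011 lay above and 6706 below in the former case, and 7127 and 6806 in the latter. Without Ctsz and Ctsc the median of the tested cathepsins was 0.43 with all libraries, 1.07 without ctrl replicate 1 and −0.01 without ctrl replicate 2. For Ctsz the log2 fold change stayed between 0.88 and 1.39 with any library left out, and for Ctsc between 0.94 and 1.83.

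Microglia markers differed between the ctrl replicates as well. Of 20 listed markers 18 were tested, Gpr34 and Siglech were at 0 in every library, and 11 of the 18 were at least 1.5-fold higher in ctrl replicate 1 than in ctrl replicate 2. Their summed normalized counts were 69684 and 50372 in ctrl against 50224 and 51834 in Zfp276cko cells, so the genotypes overlapped. Another 2 markers were at least 1.5-fold higher in ctrl replicate 2, and the ratio of ctrl replicate 1 to ctrl replicate 2 ran from 0.389 (Aif1) to 59.1 (P2ry13). Between genotypes 10 of the 18 had a positive and 8 a negative fold change. Fcrls, a receptor-like protein of microglia, had normalized counts of 12725 and 18324 in ctrl against 6568 and 6762 in Zfp276cko cells, whereas Ptprc, the leukocyte antigen CD45, had 3018 and 3101 against 5092 and 5264. Cx3cr1, the fractalkine receptor, had 2290 and 2369 in ctrl against 3095 and 2966 in Zfp276cko cells. For these 3 markers the genotypes did not overlap. Of all 18 tested microglia markers, 5 lay above ctrl (27.8%), 1 lay below (5.56%) and 12 overlapped. Over all tested genes 26.8% lay above and 23.7% below. The markers had a median log2 fold change of 0.11, which became 0.56 when ctrl replicate 1 was left out and −0.31 when ctrl replicate 2 was left out. Fibroblast and mural cell markers summed to 11768 and 4394 in ctrl against 2650 and 2461 in Zfp276cko cells. Of the 9 tested markers of this list, 7 overlapped between genotypes and 2 lay below ctrl. Their median ratio of ctrl replicate 1 to ctrl replicate 2 was 18.1. Their median log2 fold change was −2.84, which became 0.15 without ctrl replicate 1 and −3.47 without ctrl replicate 2. Interferon response markers had sums of 16133 and 6510 in ctrl against 103708 and 101178 in Zfp276cko cells, and oligodendrocyte markers had 421145 and 551543 against 286524 and 295875. For the sums of the last 3 lists the genotypes did not overlap. The part of these cell types and programs in the cathepsin values was not tested.

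Lamp1 was the most counted gene of the Lamp family, with normalized counts of 29159 and 18702 in ctrl against 25091 and 23530 in Zfp276cko cells. The Zfp276cko values lay between the ctrl values, and the log2 fold change was 0.02 ± 0.25 (SE). Lamp2, whose splice form A is the receptor of chaperone-mediated autophagy, had 6597 and 3057 in ctrl against 6297 and 6427 in Zfp276cko cells. Here ctrl replicate 1 was the highest library and ctrl replicate 2 the lowest, and the log2 fold change was 0.40 ± 0.39 (SE).

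The V-ATPase subunits kept nearly the same summed level in all libraries, with 58952 and 62737 normalized counts in ctrl against 61737 and 60845 in Zfp276cko cells. The ctrl values enclosed the Zfp276cko values. Of the 18 tested subunits, 9 had a positive and 9 a negative fold change. The median ratio of ctrl replicate 1 to ctrl replicate 2 was 0.931, so the excess of ctrl replicate 1 seen for cathepsins was not seen in the median of the pump genes.

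In the V0 sector, subunit a spans the membrane, and its isoforms direct the pump to different membranes. Atp6v0a1, the isoform named for neurons and synaptic vesicles, had normalized counts of 4190 and 4222 in ctrl against 3471 and 3597 in Zfp276cko cells. Both Zfp276cko libraries were lower, at 84.0% of the ctrl mean, and the log2 fold change was −0.25 ± 0.09 (SE, adjusted p = 0.309 in edgeR's quasi-likelihood test and 0.367 in DESeq2). Leaving out any library kept this value between −0.27 and −0.22. Atp6v0a2, the Golgi and endosome isoform, had 4898 and 5259 in ctrl against 4551 and 4303 in Zfp276cko cells. It also lay below ctrl, with a log2 fold change of −0.20 ± 0.10 (SE) and an adjusted p of 0.430. Atp6v0a4, the isoform of kidney and inner ear, was low, with 204 and 75.4 in ctrl against 132 and 85.1 in Zfp276cko cells, and its genotypes overlapped.

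The proton-carrying ring is built from Atp6v0c and Atp6v0b. Atp6v0b had normalized counts of 4570 and 4931 in ctrl against 4423 and 4647 in Zfp276cko cells, overlapping between genotypes. Atp6v0c had 459 and 1173 in ctrl against 763 and 650 in Zfp276cko cells, again overlapping, and its counts are uncertain because an annotated pseudogene copy (Atp6v0c-ps1) could take or exclude reads, which was not measured. Subunit d joins the ring to the central shaft. Its general form Atp6v0d1 had 4140 and 4704 in ctrl against 4770 and 4598 in Zfp276cko cells, which overlapped. Atp6v0d2, the form of osteoclasts and macrophages, was read 126 and 3 times in ctrl and 12 and 12 times in Zfp276cko libraries. A single ctrl library therefore set its fitted log2 fold change of −2.84 ± 1.60 (SE, adjusted p = 0.471 in edgeR's quasi-likelihood test), and its sign turned when that library was left out.

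Subunit e is a small membrane protein with 2 paralogs. Atp6v0e had normalized counts of 3481 and 2611 in ctrl against 3762 and 3596 in Zfp276cko cells, above ctrl with a log2 fold change of 0.27 ± 0.17 (SE, adjusted p = 0.501). Atp6v0e2, the brain-enriched form, had 4640 and 6268 in ctrl against 5131 and 4809 in Zfp276cko cells, inside the ctrl range.

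In the V1 sector the hexamer of A and B subunits binds ATP. Atp6v1a, the catalytic subunit, had normalized counts of 8795 and 7956 in ctrl against 8285 and 8335 in Zfp276cko cells, and a log2 fold change of −0.01 ± 0.11 (SE). Atp6v1b2 had 7292 and 8337 in ctrl against 8314 and 7933 in Zfp276cko cells. For both subunits the Zfp276cko values lay between the ctrl values. Atp6v1g1, part of the peripheral stalks, was the V1 gene with the largest positive difference, with 2494 and 2540 in ctrl against 2955 and 3491 in Zfp276cko cells. Its log2 fold change was 0.36 ± 0.12 (SE, adjusted p = 0.290 in edgeR's quasi-likelihood test and 0.356 in DESeq2), and the ctrl replicates nearly coincided. Its paralog Atp6v1g2, the form of neurons, had 286 and 362 in ctrl against 396 and 357 in Zfp276cko cells, which overlapped.

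Of the remaining V1 genes, Atp6v1c1 and Atp6v1d lay above ctrl by small steps. Atp6v1c1, which sits between the stalks and the membrane sector, had normalized counts of 2403 and 2502 in ctrl against 2749 and 2734 in Zfp276cko cells. Atp6v1d, the central shaft, had 2126 and 2347 in ctrl against 2626 and 2547 in Zfp276cko cells. Their log2 fold changes were 0.16 ± 0.08 and 0.21 ± 0.10 (SE), with adjusted p of 0.444 and 0.395 in edgeR's quasi-likelihood test. Atp6v1e1 with 3787 and 4067 against 4299 and 4047, and Atp6v1f with 1725 and 1814 against 1944 and 1791, overlapped. Atp6v1h, a regulator of ATP hydrolysis, had 3309 and 3563 in ctrl against 3150 and 3309 in Zfp276cko cells, so that its nominal separation rested on less than 1 normalized count.

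The accessory genes had fold changes of opposite sign. Atp6ap1, which guides assembly and sorting of the pump, had normalized counts of 7554 and 6391 in ctrl against 5951 and 5670 in Zfp276cko cells. Both Zfp276cko libraries were lower, with a log2 fold change of −0.26 ± 0.13 (SE, adjusted p = 0.412 in edgeR's quasi-likelihood test). Atp6ap2, also known as the prorenin receptor, had 3042 and 2404 in ctrl against 3193 and 3492 in Zfp276cko cells. Here both Zfp276cko libraries were higher, with a log2 fold change of 0.30 ± 0.15 (SE, adjusted p = 0.433).

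**Figure D3:**
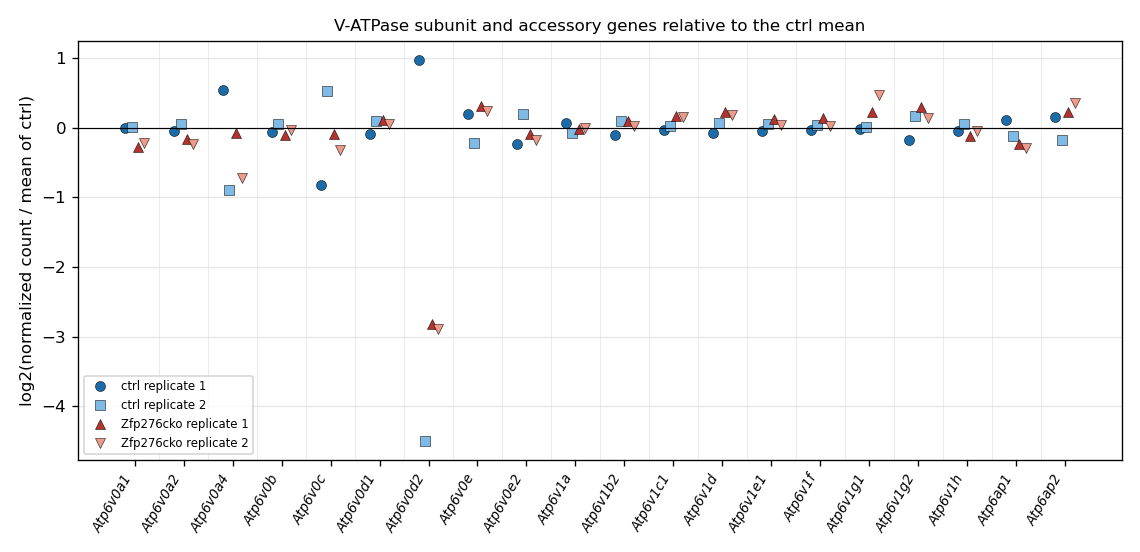
Log2 ratio of the normalized count in each library to the ctrl mean of the gene, for the tested V-ATPase subunits and accessory genes, with 1 mark per library; the line at 0 is the ctrl mean. Marks of both genotypes fall together for most subunits. Atp6v0d2, Atp6v0c and Atp6v0a4 have ctrl points far apart, and Atp6v0a1, Atp6v0a2 and Atp6ap1 have both Zfp276cko points below both ctrl points.

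Levels of different genes were compared as reads per kilobase (1000 bases) of merged exons in a library of 1000000 reads. On this scale Ctsd had the highest mean level of the cathepsins over all libraries at 485, followed by Ctsb at 397, Ctsz at 377 and Ctss at 314. Ctsz stood at 238 in ctrl and 517 in Zfp276cko cells, Ctsb at 283 and 512, and Ctsd at 400 and 570. In ctrl cells the order was Ctsd, Ctss, Ctsb and Ctsz, and in Zfp276cko cells it was Ctsd, Ctsz, Ctsb and Ctss. Neighbours in the ctrl order were not separated, because the ctrl replicates of Ctsz reached 279 and 197 and those of Ctsb 371 and 194. In Zfp276cko cells Ctsz at 553 and 481 and Ctsb at 521 and 503 were not separated either, whereas Ctsd at 581 and 560 lay above both and Ctss at 319 and 321 below both. Lamp1 reached 379 in ctrl and 385 in Zfp276cko cells, while the most abundant V1 gene Atp6v1g1 reached 93.8 and 120 and the V0 gene Atp6v0d1 104 and 111.

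Shares within a subunit family were computed from these levels per length. For subunit a the family also includes Tcirg1, the a3 isoform of lysosomes and osteoclasts, which the symbol rule does not take. Atp6v0a1 made up 32.8% and 38.0% of subunit a in ctrl against 28.1% and 30.8% in Zfp276cko cells. Atp6v0a2 made up 37.3% and 46.2% in ctrl against 35.9% and 35.9% in Zfp276cko cells. Both shares were lower in each Zfp276cko library than in either ctrl library. Tcirg1 took 27.8% and 14.9% in ctrl against 34.6% and 32.4% in Zfp276cko cells, with normalized counts of 2497 and 1165 against 2998 and 2659. Its log2 fold change of 0.63 had an adjusted p of 0.503 in edgeR's quasi-likelihood test, and its ctrl replicates were 2.14-fold apart.

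Other families showed little difference in composition. Atp6v0e2 held 67.5% and 78.9% of subunit e in ctrl against 68.0% and 67.6% in Zfp276cko cells, and Atp6v1g2 held between 4.41% and 6.06% of subunit G in all libraries. Atp6v0d2 held 2.33% of subunit d in ctrl replicate 1 and at most 0.150% in the other libraries. Raw counts without scaling by length give other shares, such as 63.9% in place of 73.2% for the ctrl mean of Atp6v0e2.

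**Figure D4:**
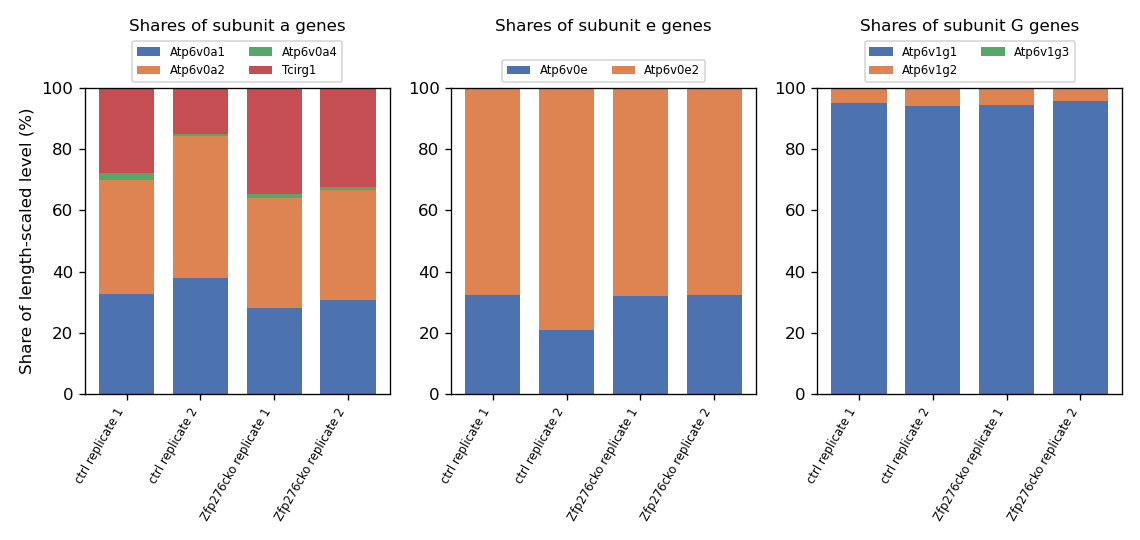
Share (%) of each gene in the summed length-scaled level of subunits a, e and G in each library, drawn as stacked bars from 0 to 100%. Tcirg1 has its smallest share of subunit a in ctrl replicate 2, at 14.9%, and Atp6v0e2 its largest share of subunit e in the same library, at 78.9%.

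The 13 members that were not tested had few reads or none. Atp6v1b1, the kidney form of subunit B, Ctsg, a serine protease of neutrophils, and the placental cathepsins Ctsj, Ctsm, Ctsq and Ctsr had 0 counts in every library, which allows up to 3 counts per library. Ctse, an aspartic protease, was read 8 and 0 times in ctrl and 2 and 6 times in Zfp276cko libraries, and Lamp5, a neuronal Lamp protein, 0 and 3 times against 6 and 8. Atp6v1c2 was read 0 and 2 times in ctrl and 5 and 3 times in Zfp276cko libraries. Atp6v1e2, a testis form, was read 1 time in each library. Atp6v1g3, Lamp3, a marker of mature dendritic cells, and Ctsw, a cathepsin of cytotoxic lymphocytes, had a single read in 1 Zfp276cko library and 0 in the others. At these counts a difference between genotypes was not detectable.

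Many lysosomal genes carry the CLEAR element, an E-box bound by the transcription factor Tfeb and its relatives. The 300-base windows around RefSeq start sites (GRCm38.p6) covered 36 of the 46 members in 41 windows. Its palindromic core TCACGTGA, which contains the E-box CACGTG, stood in 12.2% of member windows and in 0.974% of all windows, and CACGTG in 22.0% and 7.15%. Members with the core were Ctsa, which has 2 copies, Ctsd, Atp6v0d1, Atp6v1a and Atp6v0e. The sites are printed with 10 bases on each side, in the direction of transcription, with the core in capitals. They are shown because this core marks lysosomal genes and was found in genes of the pump and of the proteases alike.
Ctsa, chr2:164833750-164833777 (+): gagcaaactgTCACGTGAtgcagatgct
Ctsa, chr2:164833767-164833794 (+): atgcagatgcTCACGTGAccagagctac
Ctsd, chr7:142387909-142387936 (−): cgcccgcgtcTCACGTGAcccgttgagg
Atp6v0d1, chr8:105566051-105566078 (−): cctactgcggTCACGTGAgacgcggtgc
Atp6v1a, chr16:44139374-44139401 (−): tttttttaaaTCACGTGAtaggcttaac
Atp6v0e, chr17:26676388-26676415 (+): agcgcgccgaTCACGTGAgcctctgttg
Of these genes only Atp6v0e had Zfp276cko values that both exceeded the ctrl values, and for 0 were both lower. The core of the interferon-stimulated response element, GAAANNGAAA, stood in 12.2% of member windows against 3.44% of all windows, in Atp6v1d, Ctso, Ctss, Lamp1 and Lamp3. These are matches of letters, and binding was not measured.

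Other lysosomal genes were described from lists of the same pathway. Of 42 lysosomal hydrolases, 13 were higher (31.0%) and 1 lower (2.38%) at an unadjusted quasi-likelihood p of at most 0.05, against 8.33% and 7.3% of all genes. In both Zfp276cko libraries 27 of the 42 lay above ctrl (64.3%) and 3 below (7.14%), against 26.8% and 23.7% of all genes. Their median log2 fold change was 0.39 with all libraries, 0.63 when ctrl replicate 1 was left out and 0.14 when ctrl replicate 2 was. DESeq2 called 4 of them higher, namely Acp5, Gla, Galns and Lgmn. Like those of Ctsz and Ctsc, none of these 4 calls was kept by DESeq2 when either Zfp276cko library was left out. All 4 passed the threshold on adjusted p when either ctrl library was. As above, such a fit takes its spread from a single genotype and cannot tell how firm a call is. Gla, the alpha-galactosidase, had normalized counts of 961 and 773 in ctrl against 2203 and 2196 in Zfp276cko cells, without overlap and with a log2 fold change of 1.34 ± 0.14 (SE, adjusted p = 0.103 in edgeR and 1.32e-08 in DESeq2). Acp5, an acid phosphatase of osteoclasts and macrophages, had 724 and 406 in ctrl against 2006 and 1967 in Zfp276cko cells, for a log2 fold change of 1.81 ± 0.30 (SE). Galns, a sulfatase, and Idua, an iduronidase, had log2 fold changes of 0.96 and 0.83. Lgmn, the protease that processes several cathepsins, is named although it falls outside the naming rule and was chosen after its values were seen. It had 11071 and 11749 normalized counts in ctrl against 19007 and 17993 in Zfp276cko cells.

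Of 35 other lysosomal membrane proteins, 7 were higher and 3 lower at an unadjusted p of at most 0.05, against 8.33% and 7.3% of all genes. The median log2 fold change of this list was 0.12, or 0.27 when ctrl replicate 1 was left out and 0.015 when ctrl replicate 2 was. DESeq2 called Slc15a3, Cd68 and Hgsnat higher. Slc15a3 is a peptide and histidine transporter, Cd68 a macrophage relative of the Lamp proteins, and Hgsnat an acetyltransferase of heparan sulfate breakdown. None of these 3 calls was kept when either Zfp276cko library was left out, a check with the same limit as above. Hgsnat had normalized counts of 1426 and 1416 in ctrl against 2720 and 2740 in Zfp276cko cells, for a log2 fold change of 0.94 ± 0.08 (SE, adjusted p = 0.0962 in edgeR and 7.34e-08 in DESeq2). Slc15a3 had 1789 and 3182 in ctrl against 8026 and 7437 in Zfp276cko cells. Cd68 had 3808 and 2233 in ctrl against 6142 and 5830 in Zfp276cko cells. Mcoln3, an ion channel, had the largest log2 fold change of this list at 2.55, from 3 and 8 reads in the ctrl libraries to 46 and 39 in the Zfp276cko libraries, and DESeq2 did not call it (adjusted p = 0.0613).

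Genes that build the pump and genes that sense the lysosome were described next. Of 13 listed V-ATPase assembly and regulatory genes, Tcirg1 included, 12 were tested and 0 had an unadjusted quasi-likelihood p of at most 0.05; DESeq2 also called 0. Among 27 genes of Tfeb, mTORC1 and lysosome sensing, 5 were higher (18.5%) and 3 lower (11.1%) by the same criterion, against 8.33% and 7.3% of all genes. Their median log2 fold change was 0.02, and DESeq2 called 0. Tfeb had normalized counts of 667 and 986 in ctrl against 497 and 503 in Zfp276cko cells, for a log2 fold change of −0.72 ± 0.22 (SE, adjusted p = 0.267 in edgeR and 0.0982 in DESeq2). Both Zfp276cko libraries were below both ctrl libraries for this gene. Fnip2, Vps18 and Lamtor3 had log2 fold changes of 0.56, 0.38 and 0.35.

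Of 16 genes that sort hydrolases to lysosomes, 2 were higher (12.5%) and 1 lower (6.25%) at an unadjusted p of at most 0.05. Igf2r, a mannose-6-phosphate receptor that delivers cathepsins to the endosome, had normalized counts of 1662 and 1906 in ctrl against 2947 and 2828 in Zfp276cko cells, and DESeq2 called it higher (log2 fold change 0.69 ± 0.11, SE; adjusted p = 0.134 in edgeR and 0.00179 in DESeq2). Sort1 and Gga2, which act in the same route, had log2 fold changes of −0.40 and 0.31. Of 21 listed cathepsin inhibitors 7 were tested, and 3 were higher (42.9%) at an unadjusted quasi-likelihood p of at most 0.05, against 8.33% of all genes. Their median log2 fold change was 0.64, or 0.80 when ctrl replicate 1 was left out and 0.37 when ctrl replicate 2 was. In ctrl replicate 1, 4 of the 7 (57.1%) were at least 1.5-fold higher than in ctrl replicate 2, against 14.9% of all genes. DESeq2 called Cstb and Serpinb6a higher. The calls of Igf2r, Cstb and Serpinb6a were lost as well when either Zfp276cko library was left out, with the same limit to the check. Cstb, the cytosolic inhibitor cystatin B, had 1849 and 2292 in ctrl against 3531 and 3315 in Zfp276cko cells, for a log2 fold change of 0.73 ± 0.14 (SE). Serpinb6a and Serpina3g had log2 fold changes of 0.64 and 1.14.

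Gene spans of 16 members overlap an annotated gene on the opposite strand, among them Ctsz with Nelfcd, Ctsc with Gm26522 and Ctsb with Fdft1. The libraries were made with a stranded kit, but the strand setting of the counting is not given in the sources used here, and the share of reads from such neighbours was not measured.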

How the data were processed

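Poly(A) RNA-Seq libraries of 2 ctrl and 2 Zfp276cko preparations were analysed from the whole-number counts per gene that the authors deposited, without normalization. Reads were mapped to mm10 with STAR 2.5.4a. The submitters' processing notes list featureCounts 1.5.1, whereas the study's methods name HTSeq on Ensembl genes. Replicate p-values measure the spread between preparations.

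Genes were filtered with filterByExpr (15766 of 53465 kept, 99.9% of counts), scaled by TMM and compared with edgeR 4.0.16 (quasi-likelihood test; R 4.3.3, limma 3.58.1) over all tested genes with Benjamini-Hochberg adjustment and no covariate. DESeq2 1.42.0, other scaling and filters, the legacy setting, a replicate block and leaving out each library were alternatives. Counts of 15766 genes were simulated for this comparison, with 200 genes changed by 2 on the log2 scale. From these edgeR recovered 73% with 14 false calls and DESeq2 recovered 89% with 79. The simulation gave both genotypes the same spread per gene, unlike the data (0.354 for ctrl and 0.0480 for Zfp276cko cells). Its change of 2 also exceeds the largest positive log2 fold change of a member, 1.33. These figures therefore do not give the recovery or false calls in the data.

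Values were given for the 3 members with the highest level per length in each role, those with an unadjusted p of at most 0.05, those called by DESeq2, the 2 with the largest absolute fold change up and the 2 down and paralogs; other members were added for completeness. From each other list up to 4 genes with the largest fold change at an unadjusted p of at most 0.05 were named. The members and lists were chosen with earlier results of these data known. Exon lengths came from the GENCODE annotation of GRCm38, another release than that used for counting, and promoters from RefSeq. Counts and floors cover counting error only.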

Additional observations from a re-analysis of the deposited data

How the results depend on the processing

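With 2 libraries per genotype, the number of libraries and the spread of the ctrl replicates limit the precision, and for the 13 untested members and Atp6v0d2 the number of reads does as well. Values without 1 library assume that the lone library of a genotype varies like the others. Calls with a library left out take their spread from the genotype with 2 libraries, so they cannot tell how firm a call is. Over all genes, DESeq2 called 449 higher and 338 lower, edgeR without a filter on low counts 8 higher, and edgeR with a library left out 0 to 1792 higher and 0 to 1286 lower. Members called higher were 2 with DESeq2 and 0 to 9 with a library left out (9 without ctrl replicate 1, 3 without ctrl replicate 2), and called lower 0 to 4. At an unadjusted p of at most 0.05, 2 to 15 members were higher and 0 to 8 lower with a library left out, and 0 were lower without a filter. Members lying above ctrl were 17 without a filter and 11 to 20 with a library left out, and below 4 to 12. The fit without a filter also takes in members with few reads, such as Lamp5 with 0 and 3 reads in ctrl and 6 and 8 in Zfp276cko libraries. A share over all genes without a filter is not given here, so the 17 has no background. Of the 15766 tested genes, 5211 to 7127 lay above and 4620 to 6806 below with a library left out.

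Medians with a library left out ranged from −0.22 to −0.025 (V0), −0.13 to 0.17 (accessory), 0.030 to 1.23 (cathepsins) and −0.17 to 0.72 (Lamp); the low ends of the cathepsins and Lamp genes are those without ctrl replicate 2. The labels used here do not say whether same-numbered libraries were prepared together. Deviations of same-numbered libraries correlated at r = 0.00568 over 14317 genes. Because the Zfp276cko libraries differ so little from each other, this correlation cannot decide the question. A fit with a replicate block left 0 members lower at an unadjusted p up to 0.05, and the V0 median was −0.12. Without length scaling, shares in Zfp276cko cells were 40.6% (Atp6v0a2), 25.9% (Tcirg1), 0.225% (Atp6v0d2), 57.5% (Atp6v0e2) and 10.5% (Atp6v1g2), and in ctrl 63.9% (Atp6v0e2) and 11.4% (Atp6v1g2).

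Of the member log2 fold changes under settings other than leaving out a library, 193 kept direction and side of the threshold. Ctsz and Ctsc passed with DESeq2 (1.10 and 1.31), and Atp6v1a turned from −0.01 to 0.012 without a filter and to 0.0013 with at least 10 counts in every library. Leaving out a library turned the sign of 13 members: the ranges were −0.0055 to 0.48 (Ctsa), −0.039 to 1.38 (Ctsd), −0.019 to 1.07 (Ctsl), −0.67 to 1.49 (Ctss), −0.28 to 0.38 (Lamp1), −0.066 to 1.06 (Lamp2), −0.93 to 0.52 (Atp6v0a4), −0.73 to 0.61 (Atp6v0c), −0.0052 to 0.16 (Atp6v0d1), −3.82 to 1.61 (Atp6v0d2), −0.33 to 0.085 (Atp6v0e2), −0.10 to 0.064 (Atp6v1a) and −0.036 to 0.14 (Atp6v1b2). The causes were not tested beyond the libraries left out. The refit of DESeq2 without each library was chosen after seeing the data.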
